A study of Mus musculus with 6 samples.

Results

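The cytosolic ribosomal protein genes encode the proteins of the small and large subunits of the ribosome that translates nuclear messenger RNA. They were taken as the rows of the count table whose symbol is Rps or Rpl followed by a number (with an optional a, x or l), together with the stalk genes Rplp0, Rplp1 and Rplp2. The rule found 81 genes among 22851 rows, and 78 of them were among the 14243 genes that passed the filter on low counts and were tested. The other 3 were near 0: Rpl32l had 0 to 2 counts in the WT libraries and 3 to 4 in the knockout libraries, Rpl39l had 1 to 5 and 0 to 1, and Rpl10l had 0 in all 6.

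Each ribosome holds one copy of nearly all of these proteins, and several copies of the acidic stalk proteins. Their mRNAs are abundant and short, and many carry a run of pyrimidines at the 5′ end, the TOP motif, through which mTOR signalling sets their translation. Edf1 encodes a protein that is recruited to ribosomes that have collided on an mRNA and that was also described as a transcriptional coactivator. Ribosomal protein genes have many processed pseudogenes in the mouse genome, so short reads from them can match several places.

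Radial glial cells are the neural progenitors that give rise to the multiciliated ependymal cells lining the ventricles. These progenitors were taken from newborn C57BL/6J mice aged 0 to 3 days, either wild-type (WT) or Edf1 knockout (KO) made with CRISPR/Cas9. Both genotypes were grown in medium with 10% serum and then kept for 6 days in serum-free medium, which induces differentiation. mRNA libraries were sequenced from 3 biological replicates of each genotype, and the sources used here do not say which part of Edf1 was deleted, or whether the replicates share a litter. Library totals ranged from 13071766 counts (WT replicate 2) to 28087006 counts (KO replicate 3).

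Edf1 itself, as CPM (counts scaled to a common library total), was 82.6, 85.9 and 80.2 in the WT libraries and 9.84, 10.9 and 13.2 in the KO libraries, a log2 fold change of -2.85 (SE 0.0909, edgeR adjusted p = 5.46e-09). The first principal component, with 60.7% of the variance, separated the genotypes. The second, with 16.1%, set WT replicate 2 (-20.9) apart from WT replicates 1 and 3 (12.1 and 15.9). The KO libraries lay between them, at -6.32 to 0.144. All 13 ependymal and multiciliated markers fell, from a summed 2253 to 2427 CPM in WT to 1385 to 1451 CPM in KO. Of the microglial markers 11 of 12 fell (2784 to 3010 CPM against 1782 to 1843 CPM), and 8 of 9 tested fibroblast and mural markers rose (1006 to 1067 CPM against 1271 to 1450 CPM). Of 4 tested pituitary markers 3 rose and 1, Lhb, fell (14.7 CPM to 5.59 CPM on average). Prl and Gh had 0 counts in all WT libraries, and 131 to 198 and 10 to 15 counts in the KO libraries. Fshb had 0 in all 6 libraries, and the list summed to 17.2 to 20.4 CPM in WT and 29.0 to 35.5 CPM in KO. Among 10 radial glia and astrocyte markers 3 rose and 1 fell. Their sum was 9981 to 10480 CPM in WT and 10960 to 11370 CPM in KO. The part of these differences in the ribosomal protein values was not tested, and in bulk RNA fewer cells of a type and less RNA per cell cannot be told apart.

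The level of nearly every ribosomal protein mRNA differed little between the genotypes. Of the 78 tested genes, 3 rose in the KO libraries (Rps27a, Rps26 and Rpl41) and 1 fell (Rps29) at an adjusted p under 0.05 in edgeR's quasi-likelihood test, adjusted over all genes tested. That is 5.13% of the members, while 26.9% of all tested genes were called, 12.7% higher and 14.2% lower. The median log2 fold change of the members was -0.04, beside 0.00 for all genes tested, and their median absolute log2 fold change was 0.05, beside 0.15. Leaving out 1 library gave 3 to 7 called members, with 7 called without WT replicate 2, and 0 to 3 called lower. The median standard error was 0.0548 log2 units for the members and 0.0841 for all genes tested, whatever their level. The part of precision in the number of calls was not tested.

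The 95% interval of the fold change lay within 1.25-fold in either direction for 66 of the 78 genes and within 1.5-fold for 71. Among all tested genes, 6117 and 10296 of 14243 had intervals within the same limits. For 12 members the interval reached beyond 1.25-fold, and 4 of these were the called genes. Rps26 was among them through its shift, since its SE of 0.0429 was the smallest of the members. The others were Rpl7a, Rps27, Rpl34, Rpl21, Rps12, Rpl30, Rpl3l and Rpl17. The KO and WT libraries did not overlap for 9 members (11.5%), beside 43.3% of all tested genes. These were Rpl41, Rps26, Rps27a and Rpl10, higher in KO, and Rplp0, Rps9, Rps3, Rplp2 and Rps29, lower in KO.

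**Figure D1:**
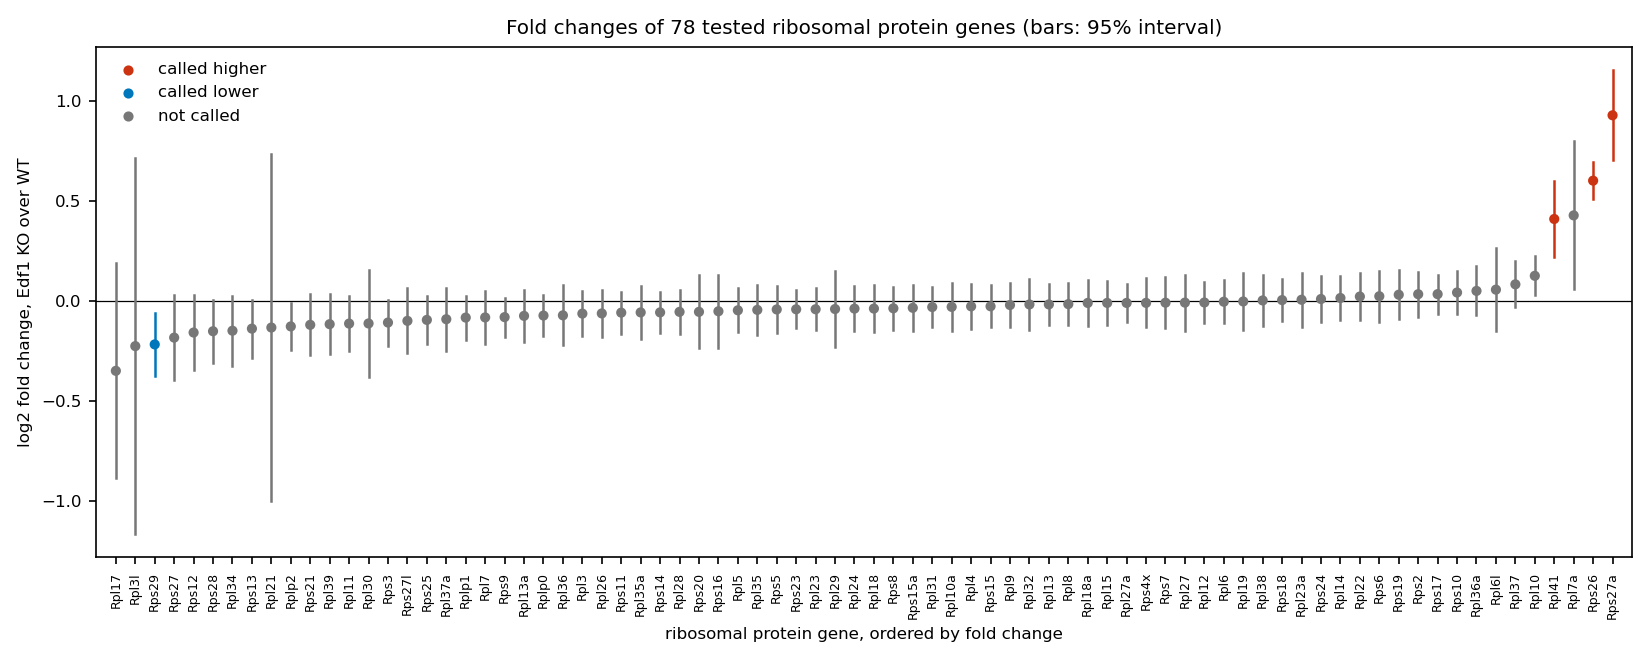
Log2 fold change, KO over WT, of each of the 78 tested ribosomal protein genes (x axis, in order of fold change), with its 95% interval as a bar. Only Rps27a, Rps26 and Rpl41 (red, higher) and Rps29 (blue, lower) were called, and most other points lie within 0.2 log2 units of 0.

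The members together took 2.36%, 2.54% and 2.29% of all counts in the WT libraries and 2.38%, 2.44% and 2.40% in the KO libraries. The means were 2.40% ± 0.128 and 2.41% ± 0.0301 (SD, n = 3 each), so the difference was smaller than the spread among WT libraries. Of the tested members 59 had a fold change below 0 and 19 above 0. WT replicate 2 was the highest of the 6 libraries for 58 of the 78 members (74.4%), beside 30.6% of all tested genes. Without that library, the median of the members was 0.01 in place of -0.04.

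WT replicate 2 also differed from the others by transcript length. The members are short, with a median representative transcript of 767.5 bases, beside 2863 bases over the tested genes. For the 912 other tested genes with transcripts under 1000 bases, the median deviation from the mean of both genotypes was 0.16 log2 units in WT replicate 2. It was 0.01 and -0.01 in WT replicates 1 and 3, and -0.07, -0.03 and -0.05 in KO replicates 1 to 3. The 4199 other genes of 4000 bases or more had the opposite sign in WT replicate 2 (-0.14), while the members themselves had a median deviation of 0.10 there.

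**Figure D2:**
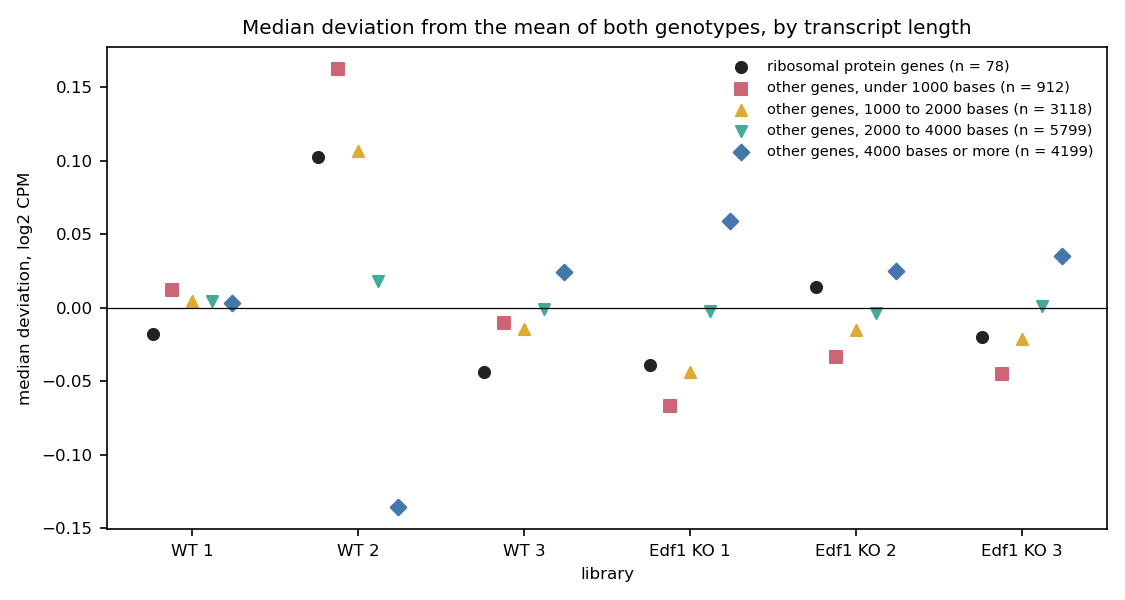
Median deviation of log2 CPM from the mean of both genotypes (y axis) in each library (x axis), for the ribosomal protein genes (black) and for other genes grouped by transcript length (colours). In WT replicate 2 the ribosomal protein genes (0.10) and other short genes (0.16) are high, and long genes are low (-0.14).

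A fit that removes each library's trend with transcript GC content and length gave other counts. With it, 23 of the 78 members (29.5%) were called, all of them higher in KO, beside 15.3% of all tested genes called higher in that fit. The members' median was 0.07, with 64 above 0 and 14 below. Called in this fit but not in the first were 20 genes, with log2 fold changes of 0.10 to 0.54. They included Rps2, Rps6, Rps4x, Rpl10, Rpl22, Rpl36a, Rpl38 and Rpl7a. Rps27a, Rps26 and Rpl41 were called higher in both fits, and Rps29 was called in the first fit but not with the correction. The sign of the members' median thus depended on this correction and on WT replicate 2, for both subunits: with the correction it was 0.07 for the small and 0.08 for the large subunit genes.

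**Figure D3:**
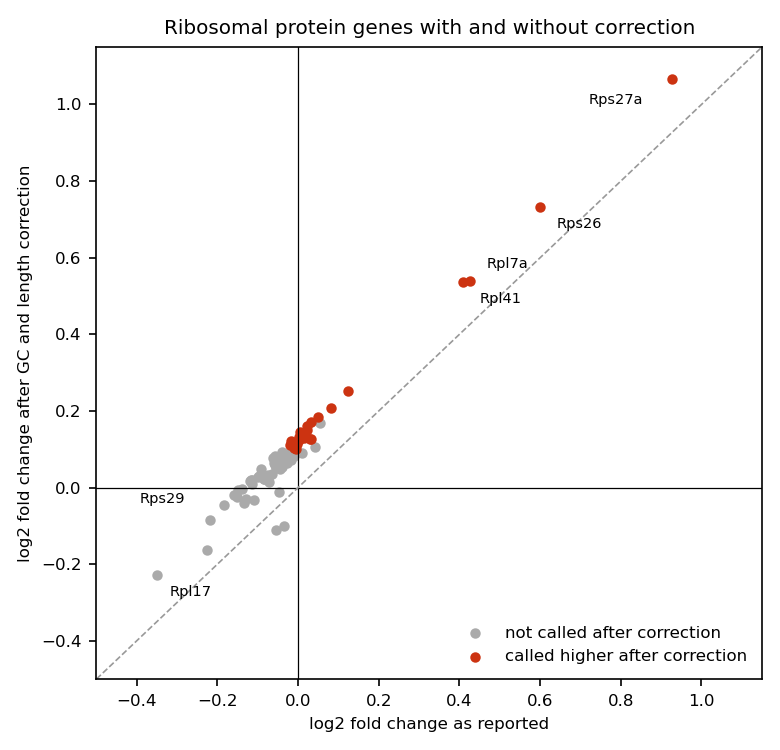
Log2 fold change, KO over WT, of the 78 tested ribosomal protein genes without (x axis) and with (y axis) the correction for transcript GC content and length; red points were called higher after it. All but 2 points lie above the dashed line of equal values, and the members' median moved from -0.04 to 0.07. The 2 are Rps20 and Rps15a, whose representative transcripts (3706 and 5130 bases) are the longest of the members.

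Rps27a encodes small subunit protein eS31 as a fusion with ubiquitin, which is cleaved off, so the gene also supplies free ubiquitin. It lies on chromosome 11 (GRCm38, 29545842 to 29548040). Its level was 89.0, 106 and 92.7 CPM in the WT libraries and 218, 164 and 165 CPM in the KO libraries, the largest rise among the members. All 3 KO libraries were above all 3 WT libraries, and KO replicate 1 was the highest. The log2 fold change was 0.93 (SE 0.104, edgeR adjusted p = 3.57e-05), and it was 0.78 without KO replicate 1.

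Around Rps27a no general shift was seen: among its 20 nearest tested genes that are not members, 2 were called higher and 2 lower, and their median log2 fold change was -0.01. Of the 31-base stretches of its transcript, 72.8% also occur in transcripts of other genes, most of them in the annotated gene Gm8430.

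Rps26 encodes small subunit protein eS26, which lies near the exit of the mRNA from the ribosome. Its level was 278, 281 and 274 CPM in the WT libraries and 418, 417 and 429 CPM in the KO libraries. The groups stood far apart, with a spread of only 3.65 CPM (SD) among WT and 7.12 CPM among KO libraries. The log2 fold change was 0.60 (SE 0.0429, edgeR adjusted p = 1.2e-06), and it ranged from 0.59 to 0.73 over all alternatives run.

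Rpl41 encodes eL41, the smallest ribosomal protein. Its level was 549, 686 and 503 CPM in the WT libraries and 762, 788 and 756 CPM in the KO libraries. WT replicate 2 was again the highest of its group, yet below every KO library. The log2 fold change was 0.41 (SE 0.0872, edgeR adjusted p = 0.00412) and 0.55 without WT replicate 2. Per kb of transcript Rpl41 was the most abundant member in both genotypes, at 1065 CPM per kb in WT and 1412 in KO.

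Rps26 and Rpl41 are neighbours on distal chromosome 10 (GRCm38, 128624529 to 128626506 and 128548110 to 128549168, both on the minus strand), with starts 77.3 kb apart. For each, 19 of the 20 nearest tested genes that are not members were called higher in KO, with a median log2 fold change of 0.64. For the other 76 tested members, the same median over neighbours lay between -0.17 and 0.16, and at most 9 of 20 neighbours were called higher. The values of these 2 members lay within the range of the genes around them.

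Within 1 Mb of the Rps26 start, 42 of 46 tested genes that are not members were called higher, and all 46 were above 0. Their median log2 fold change was 0.63, a 1.55-fold difference, with quartiles of 0.49 and 0.81 and a range of 0.27 to 1.2. Relative to the WT mean, the median level of these genes was 0.990, 1.01 and 0.998 in the WT libraries and 1.58, 1.53 and 1.57 in the KO libraries, so each KO library showed it. From 1 to 3.5 Mb on the centromere side, 24 of 29 genes were called higher, with a median of 0.62. From 3.5 to 15 Mb, 8 of 44 were called higher and 3 lower, with a median of 0.04. The nearest of these to Rps26, Usp15 and Mon2, were called higher, at 0.65 and 0.72. No tested gene lay between Usp15 and Slc16a7, which is within 3.5 Mb, so the edge of the rise was not placed. The 602 tested genes on chromosome 10 that lie more than 3.5 Mb from Rps26 on the centromere side had a median of -0.01.

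In windows of 21 consecutive tested genes, the highest median was 0.77 on chromosome 10, and the highest number called higher, in another window there, was 21 of 21. On the other chromosomes these maxima were at most 0.34 and 12 of 21. The genes near Rps26 and Rpl41 include the citrate synthase gene Cs, the myosin light chain gene Myl6 and the growth regulator Pa2g4. Edf1 lies on chromosome 2. These windows were chosen after the values were seen, so the counts are descriptions. DNA was not measured in these libraries, and the part of copy number, of a linked allele or of local regulation was not tested.

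**Figure D4:**
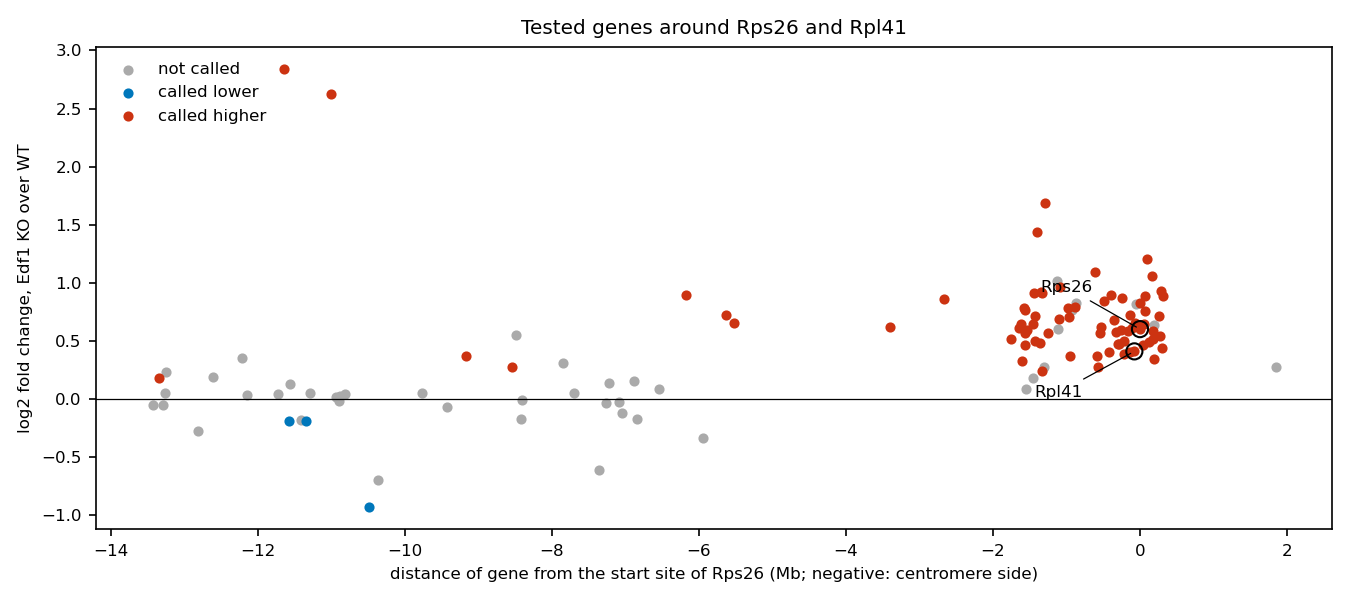
Log2 fold change, KO over WT (y axis), of tested genes on distal chromosome 10 by their distance from the Rps26 start (x axis, Mb, negative toward the centromere); red genes were called higher and blue lower, and Rps26 and Rpl41 are circled. Nearly all genes within 1 Mb are above 0 (median 0.63). Genes 3.5 to 15 Mb away have a median of 0.04, with the nearest of them, Usp15 and Mon2, at 0.65 and 0.72.

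The start regions of these 2 genes were set beside those of 2 members off chromosome 10, to show the DNA around the start sites of called members and of members that were not called. Each line gives 60 bases before and 30 bases from the annotated start, on the sense strand (RefSeq, GRCm38.p6), and capitals mark the longest run of pyrimidines that begins with C. Rps26 is at chr10:128626477-128626566 and Rpl41 at chr10:128549139-128549228, both on the minus strand. Rplp0, the stalk base gene, is at chr5:115559407-115559496 and Rpl10 at chrX:74270756-74270845, both on the plus strand.
Rps26: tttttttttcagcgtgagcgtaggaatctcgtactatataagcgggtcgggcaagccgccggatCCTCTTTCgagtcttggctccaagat
Rpl41: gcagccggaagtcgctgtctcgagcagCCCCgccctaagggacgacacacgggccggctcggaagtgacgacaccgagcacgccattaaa
Rplp0: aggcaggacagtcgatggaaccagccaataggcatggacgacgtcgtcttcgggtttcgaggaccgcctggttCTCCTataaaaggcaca
Rpl10: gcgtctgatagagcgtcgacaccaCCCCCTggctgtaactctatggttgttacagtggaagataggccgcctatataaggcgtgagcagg
The longest run had 8 bases in Rps26, 4 in Rpl41, 5 in Rplp0 and 6 in Rpl10, so the 2 called genes differed from each other in this feature. RefSeq windows were matched for 60 of the 81 members. A run of at least 8 pyrimidines that begins with C, on the sense strand, was found in 40 of these 60 windows (66.7%) and in 8123 of the 27025 genes with such a RefSeq window (30.1%). A run is a match of letters only, and its place relative to the start used in these cells was not measured.

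Rps29 encodes small subunit protein uS14, a zinc-binding protein of the head of the subunit, on chromosome 12 (GRCm38, 69157722 to 69159186). Its level was 103, 118 and 103 CPM in the WT libraries and 85.5, 99.6 and 93.2 CPM in the KO libraries. The groups did not overlap, but the highest KO library was close to the lowest WT library. The log2 fold change was -0.22 (SE 0.0721, edgeR adjusted p = 0.0408). The call was lost without WT replicate 1 (edgeR adjusted p = 0.0513), KO replicate 1 (0.185) or KO replicate 3 (0.11), and with the GC and length correction, where the log2 fold change was -0.08 (edgeR adjusted p = 0.213, range 0.0113 to 0.426 over all alternatives).

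**Figure D5:**
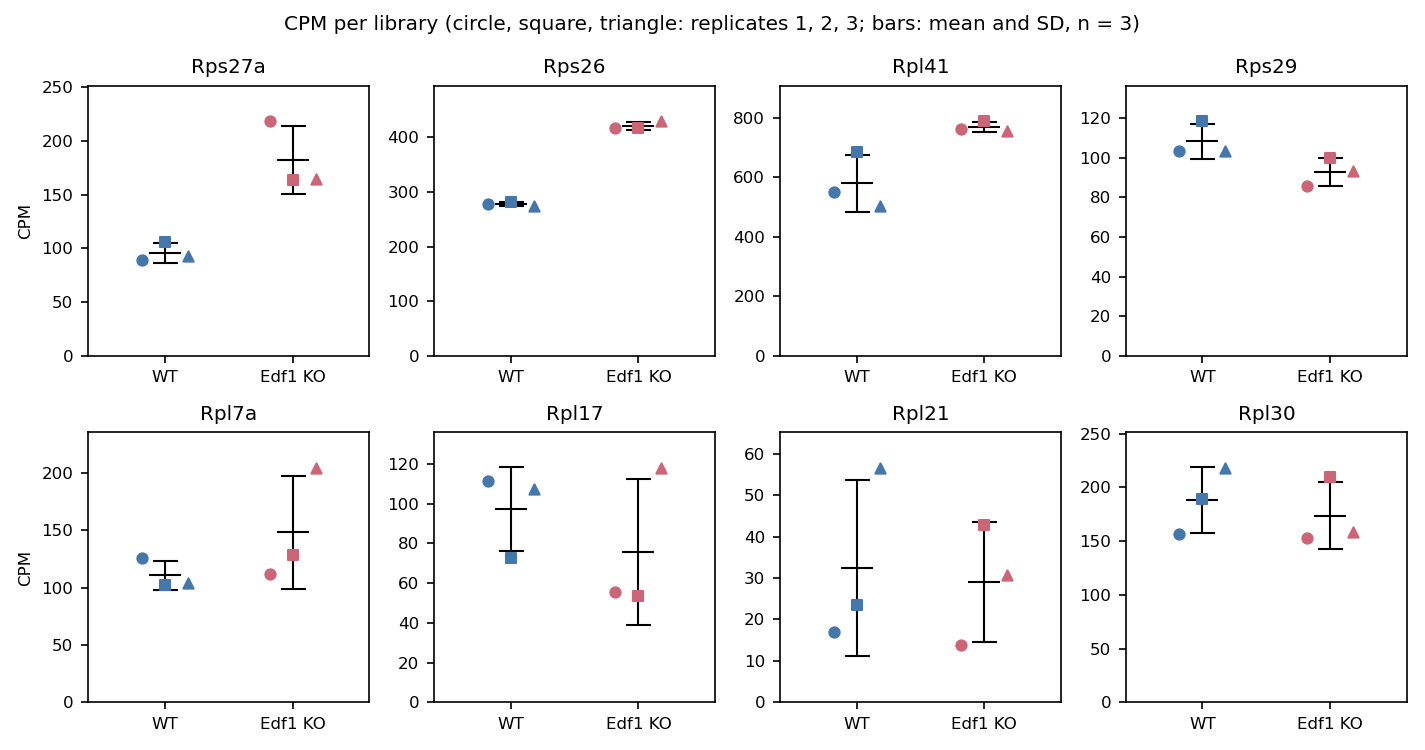
CPM per library (y axis) in WT (blue) and Edf1 KO (red) for the 4 called members (top row) and 4 members with a large spread among replicates (bottom row); bars give the mean and SD of n = 3. In the top row the genotypes do not overlap, while in the bottom row the replicates of one genotype differ from each other by more than the genotypes do.

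Edf1 acts at collided ribosomes, where the small subunit proteins encoded by Rps2, Rps3, Rps10 and Rps20 are known to receive ubiquitin. Of these 4 mRNAs none was called, except Rps2 once the GC and length correction was made (log2 fold change 0.13, edgeR adjusted p = 0.0108, range 0.00645 to 0.979 over all alternatives). Rps2, the most abundant of them by CPM, was 949, 1037 and 916 CPM in WT and 1010, 989 and 968 CPM in KO, with overlapping groups and a log2 fold change of 0.03 (edgeR adjusted p = 0.682). Rps3 was 579, 646 and 567 CPM in WT and 549, 561 and 551 CPM in KO, with no overlap and a log2 fold change of -0.11 (edgeR adjusted p = 0.151). Rps10 and Rps20 gave log2 fold changes of 0.04 and -0.06 (edgeR adjusted p = 0.591 and 0.670).

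The proteins of the decoding side and mRNA channel, encoded by Rps15 and Rps23, had mRNA changes of -0.03 and -0.04 on the log2 scale. Rps6, the classic target of S6 kinase, was 465, 520 and 437 CPM in WT and 476, 491 and 476 CPM in KO, so the KO values lay inside the WT range. With the GC and length correction its log2 fold change of 0.02 became 0.15 (edgeR adjusted p = 0.00518, range 0.000136 to 0.954 over all alternatives). Over the 29 small subunit genes, 2 rose and 1 fell, and the median log2 fold change was -0.04.

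The stalk recruits the translation factors that hydrolyse GTP on the ribosome. The 3 stalk mRNAs had a median log2 fold change of -0.08, or 0.02 with the GC and length correction, and none was called. Rplp0, which anchors the stalk, was 805, 875 and 791 CPM in WT and 771, 786 and 790 CPM in KO. Rplp2 was 203, 198 and 181 CPM in WT and 173, 179 and 181 CPM in KO, with a log2 fold change of -0.13 (SE 0.0540, edgeR adjusted p = 0.0994). Rplp1 gave -0.08 (edgeR adjusted p = 0.245) and Rpl12, at the base of the stalk, -0.01. With the correction Rplp0, Rplp1 and Rpl12 were above 0, at 0.02, 0.02 and 0.09.

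Rpl5 and Rpl11 encode the proteins of the 5S ribonucleoprotein, which also binds Mdm2 when ribosome assembly is disturbed. Rpl5 was 509, 548 and 483 CPM in WT and 495, 503 and 492 CPM in KO, with a log2 fold change of -0.05 (edgeR adjusted p = 0.532). Rpl11 was 341, 402 and 333 CPM in WT and 325, 332 and 335 CPM in KO, with a log2 fold change of -0.11 (edgeR adjusted p = 0.215). In both genes WT replicate 2 was the highest library.

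Proteins that line the exit tunnel are encoded by Rpl4, Rpl17 and Rpl39. Rpl4 and Rpl39 had log2 fold changes of -0.03 and -0.12 (edgeR adjusted p = 0.235 for Rpl39). Rpl10a, Rpl38 and Rps25, proteins linked in other work to the translation of particular mRNAs, gave -0.03, 0.00 and -0.10. Rpl38, for which a loss-of-function mouse has skeletal defects, was 76.9, 84.8 and 79.3 CPM in WT and 77.7, 81.0 and 81.9 CPM in KO. Over the 43 large subunit genes 1 rose (Rpl41), and the median log2 fold change was -0.03.

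Several ribosomal proteins have a second gene. Rps27l, the paralog of Rps27, was 118, 147 and 128 CPM in WT and 116, 127 and 121 CPM in KO, with a log2 fold change of -0.10 (edgeR adjusted p = 0.358). Rps27 gave -0.18 (edgeR adjusted p = 0.185), and 98.7% of its 31-base stretches are shared, chiefly with the retrocopy Rps27rt. Rps27rt varied from 5.47 to 36.6 CPM among KO replicates. Summed over Rps27 and Rps27rt the levels were 101, 87.3 and 94.5 CPM in WT and 73.2, 97.8 and 90.2 CPM in KO, which overlap.

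Rpl3l, a form typical of heart and skeletal muscle, was the least abundant tested member per kb, at 0.703 to 1.28 CPM in WT and 0.279 to 1.1 CPM in KO. Its widespread counterpart Rpl3 was at 788 to 906 CPM over the 6 libraries, with a log2 fold change of -0.06 (edgeR adjusted p = 0.389). Rpl10, whose testis paralog Rpl10l had no count, was 423, 439 and 421 CPM in WT and 461, 482 and 456 CPM in KO. Its groups did not overlap, its log2 fold change was 0.12 and it missed the threshold (SE 0.0447, edgeR adjusted p = 0.0567), though it passed with limma voom, without WT replicate 2 and in other alternatives. Rps4x gave -0.01.

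In pairs with one gene outside the symbol rule, Rpl22 gave 0.02 and its paralog Rpl22l1 fell by 0.20 on the log2 scale (SE 0.0605, edgeR adjusted p = 0.0276). Rpl22l1 was 107, 123 and 112 CPM in WT and 98.6, 101 and 97.3 CPM in KO, with no overlap, and its call was lost without any one of the KO replicates (edgeR adjusted p = 0.0643 to 0.105). With the GC and length correction it gave -0.12 (edgeR adjusted p = 0.0902), and -0.08 (0.216) with WT replicate 2 also removed. The difference between the fold changes of Rpl22 and Rpl22l1 was not tested. Rpl7 and Rpl7l1 gave -0.08 and -0.05, and Rpl36a and Rpl36al gave 0.05 and 0.07, with no call among these 4.

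A few members varied far more among replicates than the rest. The median SD of log2 CPM among replicates was 0.0918 in WT and 0.0391 in KO, and 0.0330 between WT replicates 1 and 3. In 4 members the SD exceeded 0.3 in a genotype. Rpl3l was one, at about 1 CPM, and the others were Rpl21, Rpl17 and Rpl7a.

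Rpl21, a large subunit gene, was 17.0, 23.5 and 56.6 CPM in WT and 14.0, 42.7 and 30.7 CPM in KO. Rpl17 was 111, 72.8 and 107 CPM in WT and 55.5, 53.5 and 118 CPM in KO, the largest negative fold change among the members (-0.35, SE 0.248, edgeR adjusted p = 0.329). Leaving out 1 library moved Rpl17 from -0.16 (without KO replicate 2) to -0.84 (without KO replicate 3), and in the second case it was called lower (edgeR adjusted p = 0.0028, range 0.0028 to 0.716 over those fits). The replicates of one genotype spanned more than the difference between genotypes in both genes.

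Rpl7a was 125, 102 and 104 CPM in WT and 112, 129 and 205 CPM in KO, so its log2 fold change of 0.43 (SE 0.170, edgeR adjusted p = 0.0839) was set by KO replicate 3. It was called with the correction, with no filter on low counts and without KO replicate 1. Rpl30 was 157, 190 and 218 CPM in WT and 153, 210 and 159 CPM in KO. Of the 31-base stretches of these transcripts, 85.0% were shared with other genes for Rpl7a, 79.2% for Rpl17, 56.5% for Rpl21 and 53.2% for Rpl30. The median over tested members was 58.1%, and 50 of 78 were above 50%. The part of shared reads in the spread among replicates was not tested. How the authors treated reads that match several places is not given in the sources used here.

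Other genes of the translation machinery were described by lists drawn from textbook knowledge. Of 9 cytosolic ribosomal protein genes outside the symbol rule 2 fell (22.2%, beside 14.2% of all tested genes), and the median was -0.05. These were Rpl22l1 and Fau, which encodes eS30 fused to a ubiquitin-like protein and had a log2 fold change of -0.24 (edgeR adjusted p = 0.0367). Both calls were lost without any one of the KO replicates, and the list's median was 0.03 with the GC and length correction. Rack1, the small subunit scaffold protein, gave -0.07.

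Of 20 elongation factors and other mRNAs of the TOP class, 2 rose and 2 fell, with a median of -0.04. That is 20.0% called, beside 26.9% of all tested genes. Naca, which encodes a subunit of the nascent polypeptide-associated complex, rose by 0.37 log2 units and lies 591 kb from Rps26 in the same stretch of chromosome 10. Eif3m rose by 0.18, and Pabpc1, the poly(A)-binding protein, and Cct4, a chaperonin subunit, fell by 0.18 and 0.16. The abundant elongation factors Eef1a1 and Eef2 gave -0.08 and -0.03 and were not called. The list's median was 0.01 with the GC and length correction, and leaving out a library lost the call of Eif3m in 5 cases, of Cct4 in 4 and of Pabpc1 in 2.

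Among 22 initiation factors 4 fell (18.2%, beside 14.2% of all tested genes), Eif1, Eif1ax, Eif3c and Eif5a, each by less than 0.2 log2 units, and the median was -0.10. Eif1 and Eif5a lost the call with the GC and length correction (edgeR adjusted p = 0.454 and 0.0533), and Eif1 also lost it with DESeq2 (adjusted p = 0.0612), among other alternatives. Without any one of the KO replicates none of these 4 was called, and the list's median stayed below 0 in every alternative run (-0.12 to -0.04). Among 45 ribosome biogenesis genes 1 rose and 6 fell (15.6% called, beside 26.9% of all tested genes), with a median of -0.03. The gene that rose was Sbds, needed to release Eif6 from the large subunit, at 128, 131 and 117 CPM in WT and 164, 177 and 170 CPM in KO (log2 fold change 0.44, edgeR adjusted p = 0.00011). Wdr12, of the PeBoW complex, fell by 0.40. Both were called in every alternative run, while the number that fell dropped to 1 without KO replicate 1 or KO replicate 3, to 2 without WT replicate 1 and to 3 without KO replicate 2.

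The mitochondrial ribosomal protein genes, which build a separate ribosome inside mitochondria, were tested alongside. Of 78 such genes 16 fell (20.5%, beside 14.2% of all tested genes), and 70 of 78 had a fold change below 0, with a median of -0.13. Mrpl39 was 117, 134 and 120 CPM in WT and 91.7, 93.5 and 91.8 CPM in KO, a log2 fold change of -0.42 (edgeR adjusted p = 0.000232). Mrpl24 also fell by 0.42. In 61 of the 78 genes WT replicate 2 was the highest library. The list's median lay below 0 in every alternative run, from -0.16 to -0.04, and 8 to 17 genes fell, with 8 called lower without KO replicate 3. With the GC and length correction 14 fell and 3 rose, beside 17.0% of all tested genes called lower in that fit. The difference between the cytosolic and the mitochondrial list was not tested.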

How the data were processed

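mRNA libraries were made from 3 WT and 3 Edf1 KO replicates. The authors deposited raw read counts per gene symbol for all 6 libraries. The submitters' processing notes name FastQC 0.11.2, cutadapt 1.11, HISAT2 2.1.0 and GRCm38. The counter, its strand setting and its treatment of multiply mapped reads are not given in the sources used here. Of 22851 rows, 4913 had no count. Genes passing filterByExpr (14243) were tested with edgeR 4.0.16 (TMM scaling, quasi-likelihood test, R 4.3.3), with p-values adjusted by Benjamini and Hochberg's method over all of them and called at 0.05. CPM values use TMM-scaled totals. SEs were derived from the F statistic. Shared 31-base stretches, transcript lengths and GC content came from GENCODE M21 transcripts, and positions from RefSeq (GRCm38.p6).

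The members, role lists and marker lists were chosen with earlier results of these data known. The genes named were those of fixed roles, all called members, and the members with extreme level per kb or spread. Alternatives included DESeq2 1.42.0, limma voom 3.58.1, other scaling and filters, leaving out each library, and a replicate block. They also included a correction by splines on GC and length, and adding pseudogene rows to their parent genes. Only rows with a -ps symbol were added, with parents Rps12, Rpl13, Rps15a, Rpl34, Rpl27a, Rpl31 and Rpl17. This added no counts to Rps27a, Rps26, Rpl41 or Rps29, and pseudogenes under other symbols were not added. The procedure was tested on simulated data. These held no trend with GC or length, no library like WT replicate 2 and no shared reads, so they could not test those features. The labels name no pairing of replicates, and the main test used none. The p-values measure the spread among 3 replicates per genotype.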

Additional observations from a re-analysis of the deposited data

How the results depend on the processing

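Rps27a, Rps26 and Rpl41 kept their direction and call in all alternatives run. Adding pseudogene rows did not change the counts of these genes, so that alternative could not test them. Most other members were not called, and their small differences changed sign easily; the cause was not tested. Leaving out each library in turn gave 3 to 7 called members, with 3 to 5 higher and 0 to 3 lower, and 2658 to 4340 called genes in all. The most members, 7, were called without WT replicate 2, which added Rpl10, Rpl37 and Rps27. Leaving out a library gave ranges that crossed 0 for Rps2 (-0.0026 to 0.0848), Rps20 (-0.132 to 0.0692), Rps15 (-0.0497 to 0.0174), Rps6 (-0.0299 to 0.0921), Rpl12 (-0.0304 to 0.0178), Rpl5 (-0.0867 to 0.0005), Rpl4 (-0.0658 to 0.0215), Rpl10a (-0.0768 to 0.0225), Rpl38 (-0.0284 to 0.0407), Rpl3l (-0.4997 to 0.1612), Rps4x (-0.0489 to 0.0546) and Rpl22 (-0.0013 to 0.0685). At an adjusted p under 0.01, 3 members were higher and 0 lower (edgeR; 7 members had an unadjusted p under 0.05, and DESeq2 called 4 members at 0.05), with 2213 genes called in all, 965 higher and 1248 lower. With library size alone as scaling, Rpl12 was 0.0052 and Rps4x 0.0037.

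Replicates with the same number correlated by 0.0693, 0.0604 and 0.0372 in their deviations from the genotype means. Replicates with different numbers were not compared in this way, so these values cannot decide whether the numbers mark pairs. The replicate block gave 5 called members, adding Rpl10, with a median of -0.0385 and Rpl38 at -0.0001. The replicate block with GC and length correction gave 25 called members, 25 higher and 0 lower, with a median of 0.0702. The correction without the block gave 23, 23 and 0, with a median of 0.0698. Signs then turned positive, first without and then with the block, for Rps15 (0.0771, 0.0772), Rps23 (0.0706, 0.0710), Rplp0 (0.0200, 0.0199), Rplp1 (0.0222, 0.0234), Rpl12 (0.0944, 0.0939), Rpl11 (0.0081, 0.0085), Rpl4 (0.0653, 0.0655), Rpl39 (0.0209, 0.0224), Rpl10a (0.0874, 0.0882), Rps25 (0.0310, 0.0306), Rps27l (0.0284, 0.0272), Rpl3 (0.0344, 0.0344), Rps4x (0.1116, 0.1118) and Rpl7 (0.0221, 0.0233). The correction with WT replicate 2 removed, chosen after seeing the data, gave 31 called members, 31 higher and 0 lower, a median of 0.0686, and positive values for Rps3 (0.0010), Rps20 (0.0430), Rps15 (0.0697), Rps23 (0.0486), Rplp0 (0.0238), Rplp1 (0.0064), Rpl12 (0.0820), Rpl5 (0.0270), Rpl11 (0.0467), Rpl4 (0.0828), Rpl39 (0.0600), Rpl10a (0.0924), Rps25 (0.0522), Rps27l (0.0866), Rpl3 (0.0467), Rps4x (0.1360), Rpl7 (0.0675) and Rpl7l1 (0.0115). The median level of the members in WT was 269 CPM.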
